A study of Mus musculus with 12 samples.

Results

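Retinoic acid is a small signalling molecule that cells make from vitamin A, and this report follows 7 genes that take up its precursor, make it, carry it, sense it or break it down. The genes were picked by symbol, as 7 of the 23354 genes listed in all libraries: Stra6, Dhrs3, Aldh1a2, Crabp2, Rarb, Rarg and Cyp26a1. Their mRNA was measured in J1 mouse embryonic stem cells made into stable lines, as 12 libraries in 6 groups of 2 each. All lines grew on inactivated mouse embryonic fibroblasts in medium with serum and leukemia inhibitory factor, and no retinoid treatment is named. One set of lines overexpressed histone H3.1, either as the wild-type protein, called H3.1WT and used as control, or with a methionine in place of lysine 9 (H3.1K9M) or of lysine 36 (H3.1K36M). Histones with such a substitution are known to reduce methylation of the same lysine across the cell's chromatin. The remaining lines carried a hairpin against Suv39h1 (shSuv39h1) or Suv39h2 (shSuv39h2), a pair of enzymes that methylate H3K9 in heterochromatin, or the hairpin shNC, read here as the control hairpin. The labels say neither whether a line was a clone nor whether replicate libraries came from separate cultures, so the p-values reflect a replicate spread that may be purely technical.

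As background, the receptor STRA6 lets a cell take up retinol from its carrier protein in the blood. Retinol is oxidised to retinal, which DHRS3 can reduce back to retinol, and ALDH1A2 oxidises retinal to retinoic acid. CRABP2 carries retinoic acid to the nucleus, where the receptors RARB and RARG, paired with an RXR, bind short direct repeats in DNA called response elements. CYP26A1 hydroxylates retinoic acid and so starts its removal. Cyp26a1 and Rarb are textbook direct targets of the receptors, and Stra6, Dhrs3 and Crabp2 are also known to be induced by retinoic acid in stem cells.

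The response element form with 5 bases between its hexamers was found in the promoters of 2 members, Cyp26a1 and Rarb, and both are shown because they are the sequences through which a retinoic acid receptor is known to act. The search covered RefSeq promoter windows of GRCm38.p6, from 250 bases before to 50 after each start. A hexamer was the consensus AGGTCA, its variant AGTTCA, the form GGGTCA or the form GGTTCA. A repeat was a pair of hexamers in the same direction, on either strand, with 5, 2 or 1 bases between them. Capitals mark the hexamers, and each line is written 5′ to 3′ on the strand of the gene.
Cyp26a1, chr19:37697770-37697798, + strand: taaagaTGAACTttgggTGAACTaatttg
Rarb, chr14:16575507-16575535, - strand: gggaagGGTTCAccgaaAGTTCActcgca
In Cyp26a1 the repeat lies on the opposite strand, where it reads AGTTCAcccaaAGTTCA, and spans positions -32 to -16 from the start. In Rarb it lies on the gene's own strand at -53 to -37. Positions are counted from the RefSeq start of each window, which is not the start of the gene span given below from GENCODE M21. The Rarb repeat, at 16575513 to 16575529, lies inside that span, which runs from 16430839 to 16819156. A repeat with 5 bases between hexamers was present in 32 of all 32817 windows of this length, a share of 0.0975%. Repeats with 2 bases between were in 0.268% and those with 1 base between in 0.222% of windows. None of these repeats was found in the windows of Rarg, Dhrs3, Aldh1a2 and Stra6, which says only that these letters are not in those windows. A match is a description of the letters and not a measured binding site.

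Values are FPKM, a fragment density scaled for transcript length and library depth, so levels can be set side by side between genes. By an approximate estimate from the steps between low values, a transcript of 2 kb at 1 FPKM rested on 41.47 to 54.83 fragments, depending on the library. All 10 markers of embryonic stem cells reached 1 FPKM in every library. The 20 fibroblast markers summed to between 626 FPKM in shSuv39h1 replicate 2 and 2144 FPKM in H3.1K9M replicate 1, so RNA from feeder cells was present throughout. Of the targeted genes, Suv39h2 was at 1.61 and 1.76 FPKM in shSuv39h2 against 4.80 and 4.78 in shNC (limma, adjusted p = 0.000304). Suv39h1 read 4.91 and 5.10 FPKM in its own knockdown and 8.58 and 7.52 FPKM in shNC, a difference that did not pass (limma, adjusted p = 0.0877). Comparisons used limma on log2(FPKM + 1) for the 13109 genes that reached 1 FPKM in 2 or more libraries. The p-values were two-sided and adjusted by the Benjamini-Hochberg method over all of them, with a threshold of 0.05. Fold changes named log2 are on that scale and understate changes of low genes, whereas plain folds are ratios of mean FPKM. Of the members 6 were tested, and Rarb was not, because it never reached 1 FPKM. Since each group has 2 libraries, groups that do not overlap are common: this held for 35.2% of tested genes in H3.1K9M against H3.1WT, 65.9% in H3.1K36M against H3.1WT and 52% in H3.1K36M against H3.1K9M. The share was 39.4% in shSuv39h1 against shNC and also in H3.1WT against shNC, 50.8% in shSuv39h2 against shNC and 58.7% between the knockdowns.

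The receptor gene Rarg and the carrier gene Crabp2 were the abundant members, while the receptor gene Rarb and the genes of uptake, synthesis and breakdown were low. Rarg had a median of 76.1 FPKM over the 12 libraries, above 96.1% of all listed genes by mean level. Crabp2 followed with a median of 19.0 FPKM, above 84.3% of genes. Dhrs3, Aldh1a2 and Cyp26a1 had medians of 1.72, 1.65 and 1.18 FPKM, and Stra6 and Rarb of 0.641 and 0.293. By approximate depth, Rarg rested on at least 4350 fragments in each library, Crabp2 on at least 272, and the low members on far fewer, with a median of 50.8 for Cyp26a1, 82.2 for Aldh1a2 and 23.0 for Rarb. Cyp26a1 nevertheless had the widest range among the members, 7.16-fold between its highest and lowest library, and Rarg the narrowest at 1.64-fold.

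**Figure D1:**
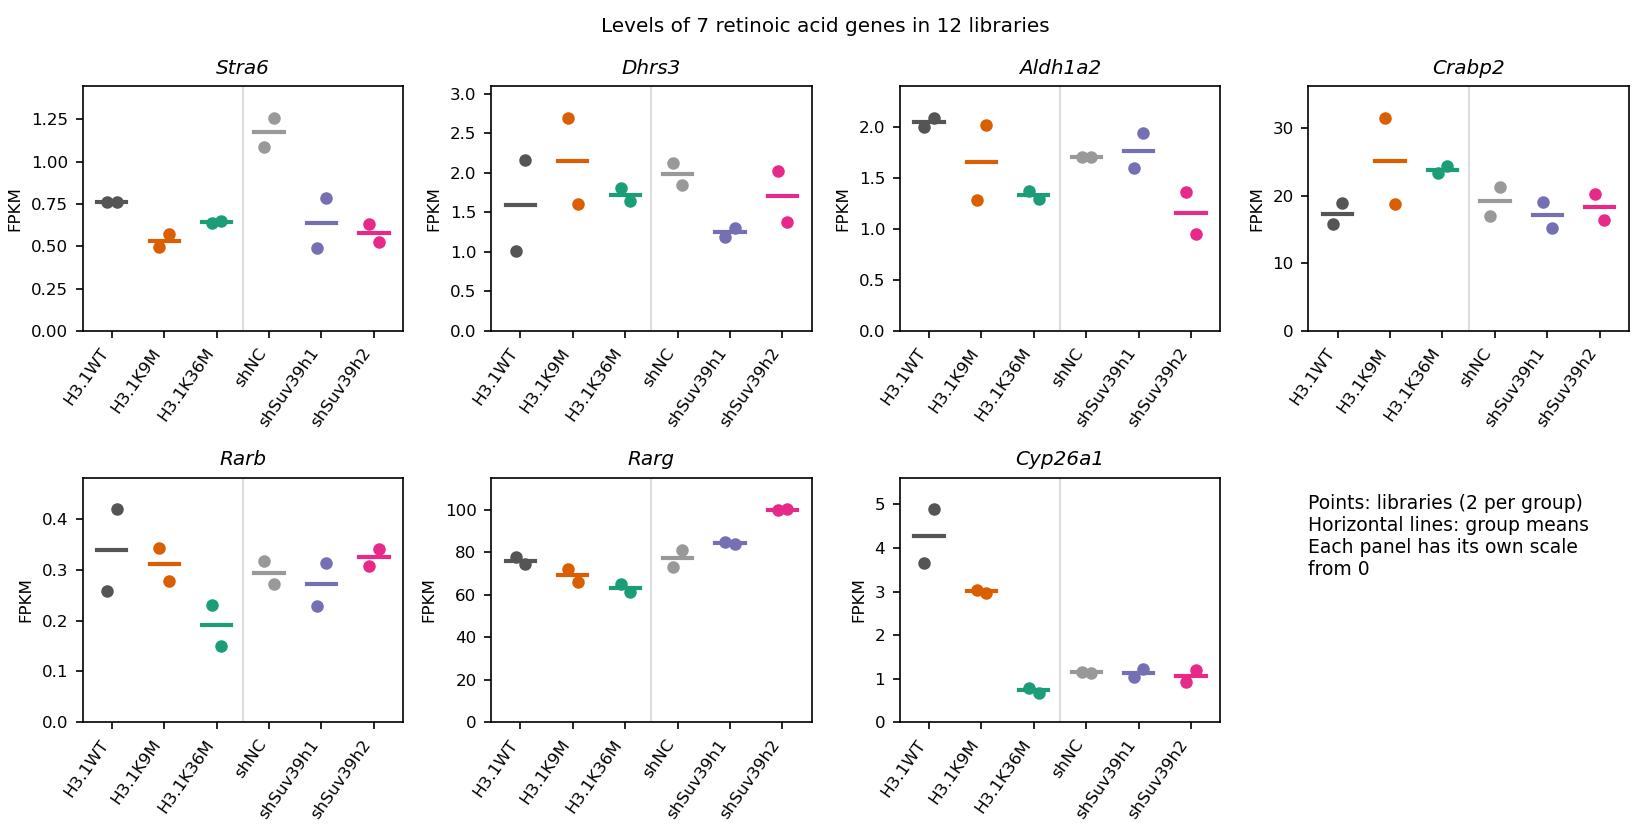
FPKM of each member in each of the 12 libraries, 1 panel per gene with its own axis, with points for libraries and bars for the group means. Cyp26a1 is high in H3.1WT and H3.1K9M and lowest in H3.1K36M, while Rarg is highest in shSuv39h2 at 100.1 FPKM.

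Cyp26a1, the enzyme that clears retinoic acid, fell in the H3.1K36M line. The gene is on chromosome 19 from 37697798 to 37701536 on the + strand (GRCm38). Its level was 3.66 and 4.88 FPKM in H3.1WT, 3.03 and 2.98 in H3.1K9M, and 0.796 and 0.682 in H3.1K36M. Both H3.1K36M libraries lay below every other library of the series, and the H3.1WT and H3.1K9M libraries lay above the rest. The mean of H3.1K36M, 0.739 ± 0.0810 FPKM (SD, n = 2), was 17.3% of the H3.1WT mean of 4.27 ± 0.865 FPKM (SD, n = 2), a 5.78-fold difference. On the log2 scale the change was -1.59 with a standard error of 0.130 and a 95% interval from -1.88 to -1.30 (limma, adjusted p = 0.000183). It was 1 of 6 tested members called in this comparison, in which 4.84% of all tested genes were called. Leaving out each of the 4 libraries in turn gave log2 changes from -1.76 to -1.42, all past the threshold. In a fit with the fibroblast marker level as a covariate the change was -1.67 (limma, adjusted p = 0.00144). That level, as mean log2(FPKM + 1), also differed between these groups, at 5.07 and 5.05 in H3.1K36M and 3.81 and 4.53 in H3.1WT. The part of feeder RNA in the Cyp26a1 change was not tested.

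Against H3.1K9M, which alters the other lysine, Cyp26a1 was also lower in H3.1K36M. The H3.1K9M mean was 3.00 ± 0.0407 FPKM (SD, n = 2), 4.06-fold above H3.1K36M, and the log2 change was -1.20 with an interval from -1.49 to -0.91 (limma, adjusted p = 0.000616). No other tested member was called, against 8.24% of all tested genes. The comparison of H3.1K9M with H3.1WT gave a log2 difference of -0.39 for Cyp26a1 with an interval from -0.68 to -0.10 before adjustment, and it did not pass (limma, adjusted p = 0.324). These comparisons share libraries, so they are not independent of each other.

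In the hairpin lines Cyp26a1 was close to 1 FPKM throughout. It was at 1.17 and 1.13 FPKM in shNC, 1.04 and 1.22 in shSuv39h1, and 0.930 and 1.19 in shSuv39h2, and these groups overlapped. The log2 difference from shNC was -0.01 with an interval from -0.30 to 0.28 in shSuv39h1, and -0.06 with an interval from -0.35 to 0.23 in shSuv39h2. Between the control lines, the H3.1WT mean was 3.72-fold the shNC mean, a log2 difference of 1.28 with a standard error of 0.130 (limma, adjusted p = 0.00503). It was the sole call among the 6 tested members, where 0.336% of all tested genes were called. That call was lost without shNC replicate 1 (limma, adjusted p = 0.0548) and in a fit of the control groups alone (limma, adjusted p = 0.229), with log2 differences from 1.12 to 1.45 when single libraries were left out. Histone overexpression, the hairpin and the arm of the experiment cannot be told apart in it.

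**Figure D2:**
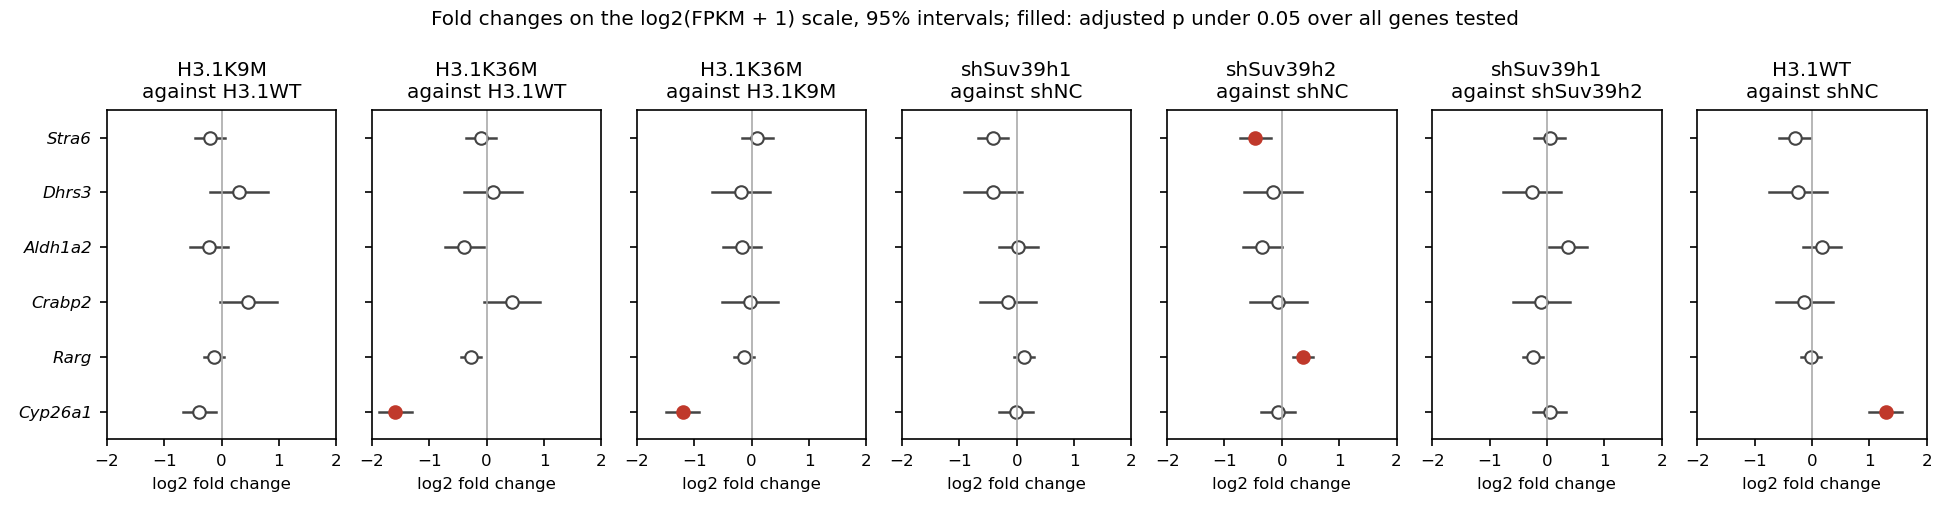
Log2 fold change of each tested member in the 7 comparisons on the log2(FPKM + 1) scale, with 95% intervals before adjustment for multiple tests and filled points where the adjusted p was under 0.05. The Cyp26a1 value of -1.59 in H3.1K36M against H3.1WT is the farthest from 0.

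The tested genes whose profile over the 12 libraries was most like that of Cyp26a1 were Vrtn, Sp5 and Evx1. Likeness was the root mean square difference of log2(FPKM + 1) values after each gene's own mean was removed, and it was 0.123, 0.197 and 0.219 respectively. Vrtn was at 3.86 and 4.41 FPKM in H3.1WT, 3.81 and 3.07 in H3.1K9M, and 0.743 and 0.733 in H3.1K36M. Sp5, a transcription factor gene known as a target of Wnt signalling, was at 4.88 and 5.57 FPKM in H3.1WT and 1.82 and 1.63 in H3.1K36M. Evx1, a homeobox gene of the primitive streak, was at 1.02 and 1.40 FPKM in H3.1WT and at 0.0693 and 0.0865 in H3.1K36M. These genes were chosen for this likeness, so their shared pattern is a description.

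**Figure D3:**
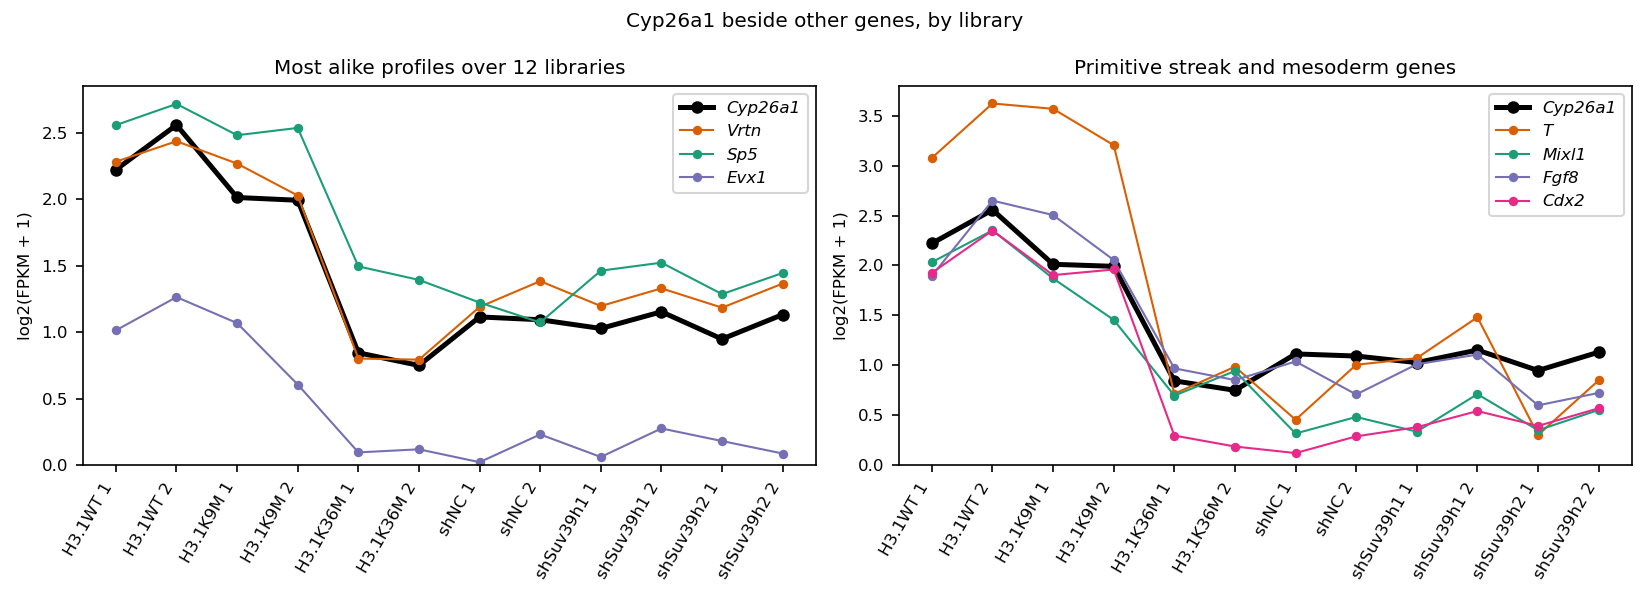
Profiles over the 12 libraries, as log2(FPKM + 1), of Cyp26a1 beside the 3 genes most like it (left) and beside T, Mixl1, Fgf8 and Cdx2 of the primitive streak and mesoderm list (right). In both panels every profile is higher in the H3.1WT and H3.1K9M libraries than in the H3.1K36M and hairpin libraries. The genes on the right were picked from a longer list. Of its genes not drawn, Eomes and Wnt3 follow this pattern, while Hand1, Mesp1 and Tbx6 do not. Hand1 is at 2.35 FPKM in H3.1K9M replicate 1 and 4.01 in shSuv39h1 replicate 1, and Tbx6 is highest in shSuv39h2 replicate 1, at 1.70 FPKM.

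Markers of the primitive streak and mesoderm, a list of 10 genes of which 9 were tested, moved in the same comparisons. In H3.1K36M against H3.1WT 8 of 9 fell, where 1.74% of all tested genes fell, with a median log2 change of -1.35 against 0.03 over all tested genes. Cdx2, Mixl1 and Evx1 reached 1 FPKM only in H3.1WT and H3.1K9M libraries, so they had to be high there to enter the test. Nothing is therefore read from the counts of this list against the share of all genes, here or in H3.1WT against shNC. With no filter 8 of 10 fell. T, the brachyury gene of early mesoderm, went from 9.37 ± 2.74 FPKM (SD, n = 2) in H3.1WT to 0.812 ± 0.239 in H3.1K36M (limma, adjusted p = 0.00113). Cdx2, a posterior homeobox gene, went from 3.45 to 0.184 FPKM, and Tbx6 did not pass at a log2 difference of 0.0018. The summed level of the list was 29.9 and 40.2 FPKM in H3.1WT, 32.2 and 28.6 in H3.1K9M, 8.65 and 8.48 in H3.1K36M, and between 8.89 and 13.5 in the 6 hairpin libraries, with no gene of the list at 0 in any library. The count fell to 6 without H3.1WT replicate 1, to 3 without H3.1WT replicate 2, to 2 without H3.1K36M replicate 1 and to 3 without H3.1K36M replicate 2, and it was 5 in the histone arm alone. In H3.1WT against shNC 6 of the 9 rose, where 0.214% of all tested genes rose, 1 did without shNC replicate 1 or without H3.1WT replicate 2, and none did in a fit of the control groups alone. With no filter or with library quality weights 3 rose. The part of such cells in the Cyp26a1 values was not tested. In these bulk libraries fewer cells of a type and less RNA per cell cannot be told apart.

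Rarg, the abundant retinoic acid receptor of these cells, rose in the shSuv39h2 line. It lies on chromosome 15 from 102234938 to 102257517 on the - strand (GRCm38). Its level was 73.3 and 81.3 FPKM in shNC, 84.9 and 83.9 in shSuv39h1, and 100.1 in each library of shSuv39h2. The groups did not overlap, and shSuv39h2 was above every other library of the series. The shSuv39h2 mean was 1.30-fold the shNC mean of 77.3 ± 5.64 FPKM (SD, n = 2), a log2 change of 0.37 with a standard error of 0.0784 and an interval from 0.20 to 0.55 (limma, adjusted p = 0.0178). In this comparison 2 of the 6 tested members were called, where 10% of all tested genes were called and 50.8% did not overlap between the groups. The other call, Stra6, passed the low-value filter only through the shNC libraries, where it is high, so nothing is read from the count. The Rarg call was lost without shNC replicate 1 (limma, adjusted p = 0.0902), without shSuv39h2 replicate 1 (0.0935) and without shSuv39h2 replicate 2 (0.0951), with log2 changes from 0.30 to 0.44.

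The Rarg comparisons that involve shSuv39h1 did not pass. In shSuv39h1 against shNC the log2 difference was 0.13 with an interval from -0.05 to 0.30 (limma, adjusted p = 0.633). In shSuv39h1 against shSuv39h2 it was -0.24 with an interval from -0.42 to -0.07 before adjustment (limma, adjusted p = 0.103), so a difference between the knockdowns is not shown. None of the 6 tested members was called in that comparison, where 6.56% of all tested genes were called and 2 members had an unadjusted p under 0.05. In the histone lines Rarg was at 77.7 and 74.5 FPKM in H3.1WT, 72.1 and 66.1 in H3.1K9M, and 64.9 and 61.2 in H3.1K36M. The H3.1K36M libraries were the lowest of the series, yet the log2 difference from H3.1WT, -0.27 with an interval from -0.44 to -0.09 before adjustment, did not pass (limma, adjusted p = 0.0912). It did pass under quantile normalization (-0.30, adjusted p = 0.0379) and with library quality weights (adjusted p = 0.00791).

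Rarb, the receptor gene whose promoter repeat is shown above, was near the limit of measurement. It spans 16430839 to 16819156 on the - strand of chromosome 14 (GRCm38), where the annotated span overlaps Top2b and an antisense gene on the opposite strand. The lowest, median and highest library had 0.150, 0.293 and 0.418 FPKM, or about 11.3 to 30.2 fragments. Its group means ran from 0.338 FPKM in H3.1WT to 0.190 in H3.1K36M, and all neighbours in the order overlapped. The H3.1K36M libraries, at 0.231 and 0.150 FPKM, lay below those of H3.1WT (0.257 and 0.418) and of H3.1K9M (0.343 and 0.278). Such groups without overlap made up 65.9% and 52% of tested genes in these comparisons. With the low-value filter removed, the log2 difference of H3.1K36M from H3.1WT was -0.17 with an interval from -0.32 to -0.02 (limma, adjusted p = 0.227), and no comparison passed for it.

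Stra6, the retinol receptor, was highest in the control hairpin line. It is annotated on chromosome 9 from 58063788 to 58153996 on the + strand (GRCm38), a span that overlaps Ccdc33 on the opposite strand and Gm16131, a noncoding gene, on the same strand, so its low values are uncertain to that extent. Its level was 1.09 and 1.26 FPKM in shNC, 0.489 and 0.787 in shSuv39h1, and 0.631 and 0.527 in shSuv39h2. Both shNC libraries lay above all 10 others, including H3.1WT at 0.759 and 0.761, H3.1K9M at 0.496 and 0.570, and H3.1K36M at 0.636 and 0.647. The log2 change in shSuv39h2 against shNC was -0.46 with a standard error of 0.118 (limma, adjusted p = 0.0387), and the shSuv39h2 mean was 49.3% of that in shNC. Stra6 passed the filter on low values only through the shNC libraries, so it had to be high there to enter the test at all, and without either shNC library it was not tested. With no filter the adjusted p was 0.0231 (limma). The call was lost without shSuv39h2 replicate 1 (0.115) or replicate 2 (0.194), with a pseudocount of 0.1 (0.0545), and under quantile normalization (0.131), library quality weights (0.124) or a fit of the hairpin arm alone (0.108).

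The shSuv39h1 line showed a like value for Stra6 that did not pass, with a log2 difference of -0.41 (limma, adjusted p = 0.265). No tested member was called in shSuv39h1 against shNC, where 0.145% of all tested genes were called. A single member, Stra6, had an unadjusted p under 0.05 there, as did 1384 of all genes. Between shSuv39h1 and shSuv39h2 the Stra6 difference was 0.05 with an interval from -0.22 to 0.31.

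Aldh1a2, the enzyme that makes retinoic acid, did not pass in any comparison. It is on chromosome 9 from 71215789 to 71296243 on the + strand (GRCm38). Its level was 2.00 and 2.09 FPKM in H3.1WT, 1.28 and 2.02 in H3.1K9M, and 1.37 and 1.29 in H3.1K36M. In the hairpin lines it was at 1.70 and 1.71 FPKM in shNC, 1.59 and 1.94 in shSuv39h1, and 1.36 and 0.947 in shSuv39h2. Both H3.1K36M libraries were below both H3.1WT libraries, and both shSuv39h2 libraries were below both of shNC. The log2 difference was -0.39 in H3.1K36M against H3.1WT, with an interval from -0.72 to -0.05 before adjustment (limma, adjusted p = 0.181). With library quality weights it passed (adjusted p = 0.0238). For shSuv39h2 against shNC the log2 difference was -0.34, with an interval from -0.67 to -0.0037 (limma, adjusted p = 0.188).

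Crabp2, the carrier that hands retinoic acid to its receptors, was uneven between libraries of a group. The gene is on chromosome 3 from 87948666 to 87953376 on the + strand (GRCm38). It was at 15.8 and 18.9 FPKM in H3.1WT, 31.5 and 18.7 in H3.1K9M, and 23.3 and 24.4 in H3.1K36M. The hairpin libraries ran from 15.2 to 21.3 FPKM and overlapped. H3.1K9M replicate 1 was the highest library, and the other H3.1K9M library lay within the H3.1WT range. The log2 difference was 0.47 in H3.1K9M against H3.1WT, with an interval from -0.02 to 0.96 (limma, adjusted p = 0.468), and 0.44 in H3.1K36M, with an interval from -0.05 to 0.93 (limma, adjusted p = 0.291). No member was called in H3.1K9M against H3.1WT, where 0.313% of all tested genes were called. Of the 6, 1 gene, Cyp26a1, had an unadjusted p under 0.05 there by limma, as did 1465 of all tested genes. Only without H3.1K9M replicate 2 was Crabp2 called there, at 0.83 (limma, adjusted p = 0.0430), and it was at 0.11 without replicate 1. Library quality weights brought the H3.1K36M value past the threshold (adjusted p = 0.0390).

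Dhrs3, which turns retinal back into retinol, passed in no comparison. It is on chromosome 4 from 144892827 to 144928209 on the + strand (GRCm38). Its level was 1.01 and 2.16 FPKM in H3.1WT, 2.69 and 1.61 in H3.1K9M, and 1.80 and 1.64 in H3.1K36M. In the hairpin lines it was at 2.12 and 1.84 FPKM in shNC, 1.19 and 1.30 in shSuv39h1, and 2.02 and 1.37 in shSuv39h2. The H3.1WT libraries spanned most of the range of the gene. Both shSuv39h1 libraries were below both of shNC, with a log2 difference of -0.41 and an interval from -0.91 to 0.10 (limma, adjusted p = 0.587).

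The fibroblast marker level was high where Crabp2 was high, and it matched Dhrs3 only in part. H3.1K9M replicate 1 had the highest summed fibroblast markers, 2144 FPKM, and also the highest Crabp2 and Dhrs3. The H3.1K36M libraries followed with 1613 and 1568 FPKM of fibroblast markers and were next in Crabp2. At the other end, shSuv39h1 replicate 2 had the lowest fibroblast sum, 626 FPKM, and the lowest Crabp2, while H3.1WT replicate 1 had 730 FPKM and the lowest Dhrs3. The H3.1K36M libraries, however, were mid-range in Dhrs3 at 1.80 and 1.64 FPKM. In shNC replicate 1 Dhrs3 was among the highest, at 2.12 FPKM, with a fibroblast sum of 852 FPKM. With the fibroblast marker mean as a covariate the Crabp2 difference was 0.0081 in H3.1K9M against H3.1WT and -0.14 in H3.1K36M against H3.1WT, and that of Dhrs3 was -0.05 and -0.33. None of these passed. The median log2 difference of the fibroblast list from H3.1WT was 0.87 in each mutant line, with 0 of 19 tested markers called in H3.1K9M and 3 in H3.1K36M. Since the marker level differed between the groups, the fit cannot fully separate it from the group. The part of feeder RNA in the Crabp2 and Dhrs3 values was not tested.

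**Figure D4:**
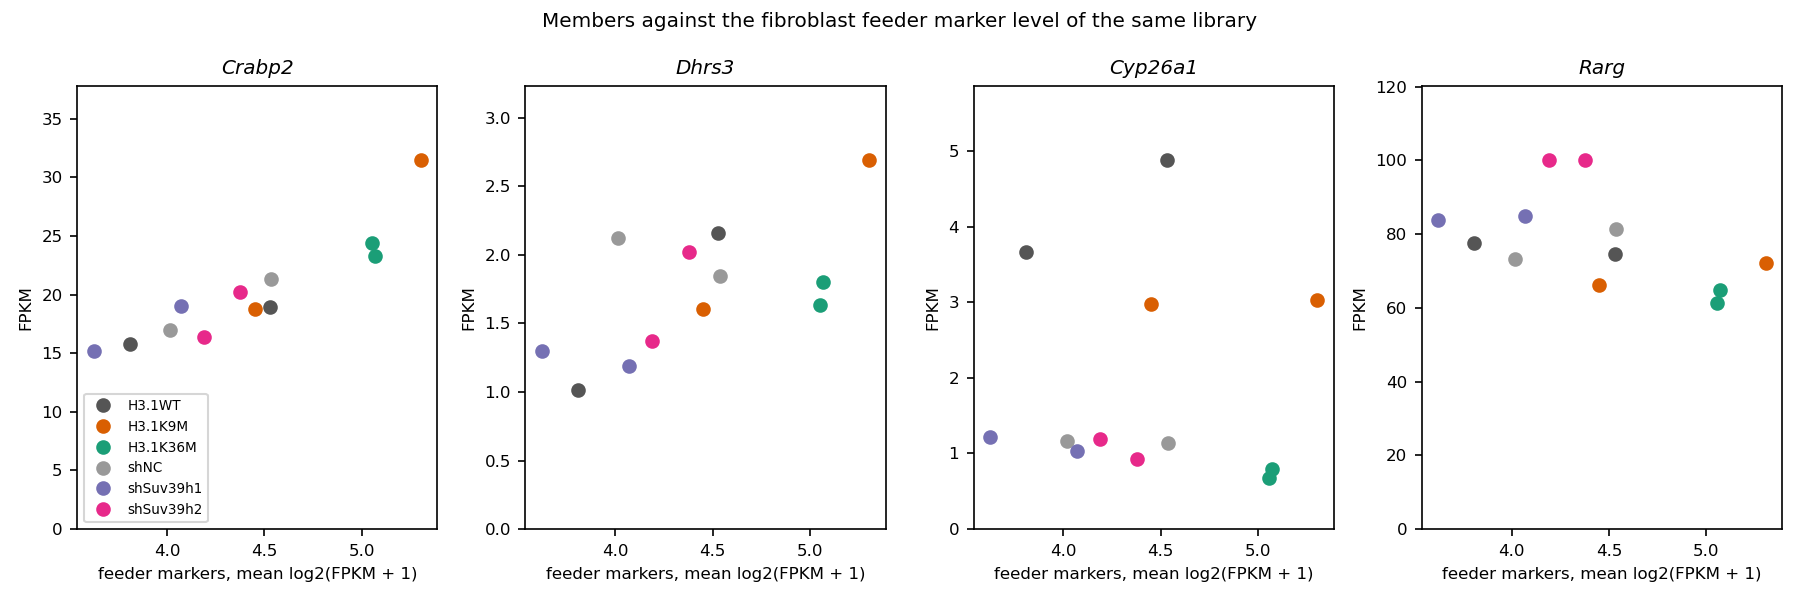
FPKM of Crabp2, Dhrs3, Cyp26a1 and Rarg in each library (vertical axes, from 0) against the mean log2(FPKM + 1) of the 20 fibroblast feeder markers in the same library (horizontal axes), with colours for the 6 groups. Crabp2 is highest, at 31.5 FPKM, in the library with the most fibroblast marker RNA, whereas Cyp26a1 separates H3.1K36M from H3.1WT and H3.1K9M.

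Taking the tested members as a group, their median log2 difference was -0.18 in H3.1K36M against H3.1WT, with 2 above and 4 below 0, where all tested genes had a median of 0.03. In shSuv39h2 against shNC it was -0.11 with 1 above and 5 below 0, against 0.04 for all genes. In the other comparisons the member median lay between -0.17 and -0.02. Over all 7 comparisons the calls were of Cyp26a1, Rarg and Stra6. Stra6 entered the filtered test only through its high shNC libraries, so the filter favoured values below 0 for it against shNC. Nothing is therefore read from the member medians and sign counts against shNC, which include Stra6. With no filter Stra6 also passed in shSuv39h2 against shNC (limma, adjusted p = 0.0231), but its call was lost in several other settings given above.

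Other genes of the retinoid pathway were followed in a list of 43, of which 42 were in the files and 26 were tested. In H3.1K36M against H3.1WT 1 fell and none rose, which is 3.85% of those tested and near the 4.84% called among all tested genes. The count depended on the setting: 7 rose and 3 fell with library quality weights, and 2 rose and 1 fell with the fibroblast covariate or with no filter. The gene that fell was Rxrg, a partner receptor of the RARs, which was at 0.928 and 0.973 FPKM in H3.1WT and 0.307 and 0.379 in H3.1K36M, a log2 change of -0.54 (limma, adjusted p = 0.0227). Its call was lost without any 1 of the 4 libraries (adjusted p 0.120 to 0.225), in the arm fitted alone (0.112) and with the fibroblast covariate (0.113). The median of the 26 was 0.09 against 0.03 for all genes. No gene of the list passed by limma in H3.1K9M against H3.1WT, in either knockdown against shNC or between the control lines. For shSuv39h2 against shNC, where 10% of all tested genes were called, 3 rose and 3 fell with the fibroblast covariate, 1 rose and 1 fell without shNC replicate 2, and 1 passed with a pseudocount of 0.1, with no filter or with quantile normalization. Between the control lines 1 rose with the covariate, and in H3.1K9M against H3.1WT 1 fell without H3.1K9M replicate 2.

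In H3.1K36M against H3.1K9M 3 genes of the list rose and 2 fell, 19.2% of those tested, where 5.57% of all tested genes rose and 2.67% fell. Crabp1, a second cytoplasmic carrier of retinoic acid, was at 99.8 and 93.6 FPKM in H3.1K36M against 57.4 and 66.9 in H3.1K9M, a log2 change of 0.63 (limma, adjusted p = 0.00222). Adh4, an alcohol dehydrogenase that can oxidise retinol, was at 2.23 and 1.66 against 0.569 and 0.582 FPKM (limma, adjusted p = 0.00612). Ncoa1, a receptor coactivator, rose by 0.42 on the log2 scale (limma, adjusted p = 0.0488), Rxrg fell by 0.68 (0.00540) and Dhrs4, a retinal reductase, fell by 0.45 (0.0499). Rxrg reached 1 FPKM only in the H3.1K9M libraries, at 1.01 and 1.30, and in shSuv39h2 replicate 1, at 1.10. It had to be high in H3.1K9M to enter the test, so nothing is read from the count of this list against the share of all genes. With no filter Rxrg also passed (limma, adjusted p = 0.00245), and 4 genes of the list rose and 1 fell. With the fibroblast covariate 6 rose and 2 fell, and without H3.1K36M replicate 1 a single gene rose and none fell. Crabp1 passed when any 1 library was left out. Adh4 was lost without H3.1K36M replicate 1 (0.0889), and Rxrg without H3.1K36M replicate 1 (0.0815) or replicate 2 (0.0534). Ncoa1 was lost without H3.1K9M replicate 1 (0.126) or either H3.1K36M library (0.274 and 0.223). Dhrs4 was lost without any 1 of the 4 libraries (0.0656 to 0.279).

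Crabp1 also separated the knockdown lines. It was at 97.0 and 102 FPKM in shSuv39h1, 58.0 and 55.1 in shSuv39h2, and 69.8 and 67.8 in shNC. The difference between the knockdowns was 0.81 on the log2 scale (limma, adjusted p = 0.00255), and it passed when any 1 library was left out. Against shNC neither passed, at 0.53 for shSuv39h1 (limma, adjusted p = 0.0608) and -0.28 for shSuv39h2 (limma, adjusted p = 0.0733). In the same comparison, in which 4.56% of all tested genes rose, Fabp5, a carrier that takes retinoic acid to other nuclear receptors, rose by 0.40 (limma, adjusted p = 0.0450) and Adh4 by 0.58 (0.0463). Both lost the call in leave-one-out fits: Adh4 without any 1 of the 4 libraries (0.103 to 0.256), and Fabp5 without shSuv39h2 replicate 1 (0.264), shSuv39h1 replicate 1 (0.194) or shSuv39h1 replicate 2 (0.234). The count of pathway genes was 3 with all libraries, 1 or 2 with any 1 left out, 1 in the hairpin arm alone, and 5 up and 1 down with library quality weights.

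Genes that share a step with a member set its level in context. Rara, which encodes the alpha receptor, ran from 22.5 to 28.7 FPKM and passed in no comparison. Crabp1 and Fabp5, at 55.1 to 102 and 47.1 to 84.7 FPKM, were above Crabp2 in every library. Rdh10, which oxidises retinol to retinal, was at 1.85 to 3.30 FPKM. The other retinal dehydrogenases were lower than Aldh1a2, with Aldh1a1 at 0.0441 to 0.421 and Aldh1a3 at 0.255 to 0.694 FPKM, and neither was tested. Cyp26b1, a second retinoic acid hydroxylase, was at 0.633 to 1.39 FPKM and differed by -0.01 on the log2 scale between H3.1K36M and H3.1WT, with an interval from -0.34 to 0.32. Cyp26c1 was listed at 0 in H3.1K9M replicate 1 and reached 0.288 FPKM at most.

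**Figure D5:**
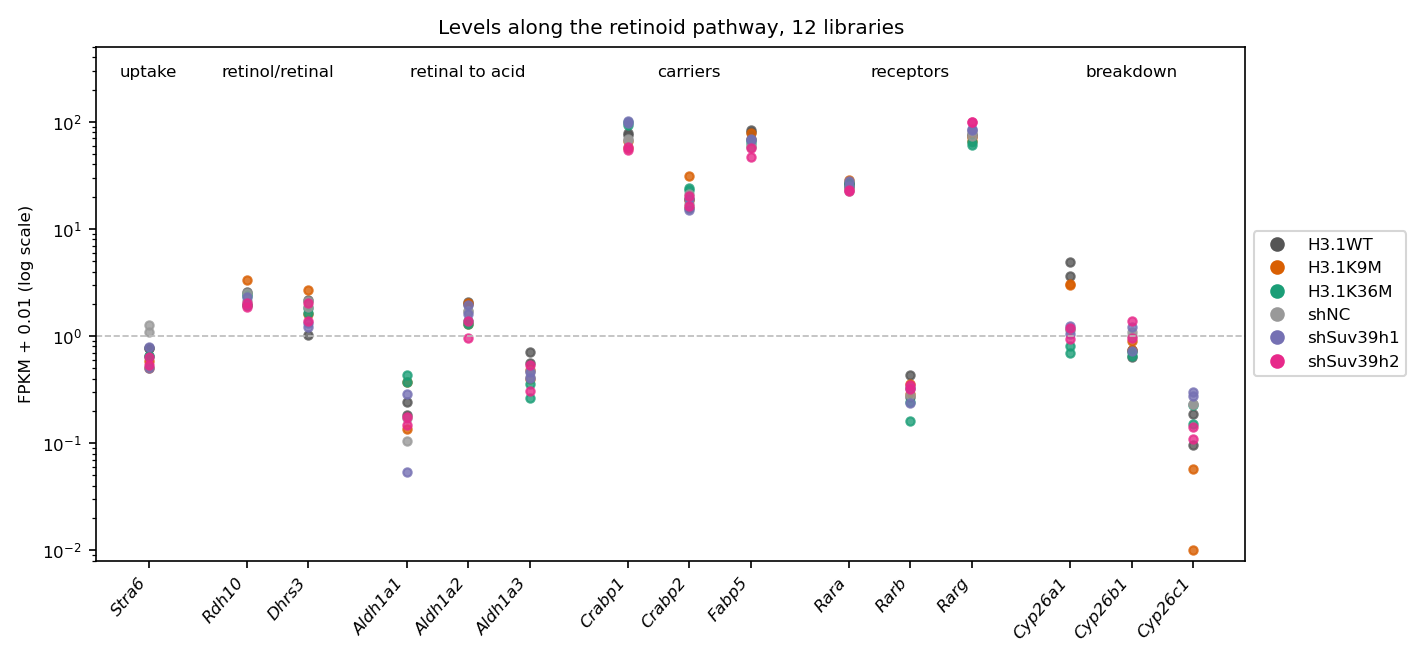
Levels of the members and of the genes that share a step with them, each point 1 library, on a log axis of FPKM + 0.01 with a dashed line at 1 FPKM. Rarg, Rara and the carriers Crabp1, Fabp5 and Crabp2 lie above 10 FPKM, and the retinal dehydrogenases and hydroxylases lie far lower, with Cyp26a1 reaching 4.88 FPKM at most.

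Of a list of 20 known response genes of retinoic acid, 11 were tested, and in shSuv39h2 against shNC 2 rose and none fell, while 5.35% of all tested genes rose. Gbx2, a homeobox gene of the midbrain-hindbrain boundary, was at 17.3 and 27.5 FPKM in shSuv39h2 against 4.61 and 9.97 in shNC, a log2 change of 1.54 (limma, adjusted p = 0.0140). Cdx1, a posterior homeobox gene, was at 4.88 and 4.47 against 2.27 and 2.12 FPKM, a log2 change of 0.83 (limma, adjusted p = 0.0242). The groups did not overlap for either gene, and the median of the 11 was 0.17 against 0.04 for all tested genes. Stra8, another gene of the 11, went the other way without passing, at 6.10 and 5.67 FPKM in shSuv39h2 against 9.51 and 6.70 in shNC. Gbx2 was lost without shNC replicate 1 (limma, adjusted p = 0.0711) or shSuv39h2 replicate 2 (0.110), and Cdx1 without any 1 of the 4 libraries (0.0677 to 0.130). In shSuv39h1 both genes also lay above both shNC libraries without passing, Gbx2 at 14.0 and 14.4 FPKM (limma, adjusted p = 0.320) and Cdx1 at 4.57 and 5.62 FPKM (limma, adjusted p = 0.126). Neither differed between the knockdowns by the test (limma, adjusted p = 0.307 for Gbx2 and 0.820 for Cdx1), so a response particular to shSuv39h2 is not shown. In H3.1K36M against H3.1WT no response gene passed by limma, and the list's median was 0.05 against 0.03, but 2 fell with library quality weights, and 1 rose and 1 fell with the fibroblast covariate. In H3.1K36M against H3.1K9M none passed, but 1 rose and 3 fell with that covariate or without H3.1K9M replicate 2.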

How the data were processed

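The 12 deposited files hold 1 value per gene symbol, read as FPKM from the values themselves. Per the submitters' processing notes, the authors used TopHat2 2.0.13, Cuffdiff 2.2.1 and mm10. The role and settings of each tool, the annotation and any scaling between libraries were not stated. Per the labels' protocols, 2 library kits were used, with no record of which library came from which.

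From the deposited FPKM, log2(FPKM + 1) was tested with limma 3.58.1 in R 4.3.3, using an intensity trend, in 1 fit over 6 groups (6 residual and 3.66 prior degrees of freedom). The filter asked for 1 FPKM or more in 2 or more libraries, which 13109 of 23354 genes met. All groups share 1 estimate of the spread, although the SD of log2 differences between libraries ran from 0.223 in H3.1K36M to 0.41 in H3.1K9M. All 7 members were named throughout, with list genes that passed (up to 6 per comparison and list by smallest p), 9 genes sharing a step with a member (1 of them not reported here), and the 3 genes most like any member whose group means ranged over at least 1 on the log2 scale. The members and lists were chosen with earlier results of these data known.

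Depth was estimated on GENCODE M21 from 2429 genes with a single transcript. With 200 bases taken off transcript length, 73.8% of 3473 low values were whole fragments within 0.05. The depth of each library and this length were chosen to make that share largest. The 10% that chance gives at a fixed depth is therefore no reference for it, and the estimate is approximate. Gene spans are from GENCODE M21. Promoter windows are from RefSeq, which held 6 of the 7 members; Crabp2 had no entry. The steps were tested on simulated data with changes planted only in genes of higher mean level. Of the members, Rarg and Crabp2 alone lay in that range, so recovery at the levels of the others, Cyp26a1 included, was not tested. Alternatives were a pseudocount of 0.1, no filter, quantile or median-of-ratios scaling, library quality weights, a replicate block, fits of 1 arm, a fibroblast marker covariate and leaving out each library. Following the lists through these settings was added after seeing the data.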

Additional observations from a re-analysis of the deposited data

How the results depend on the processing

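The Cyp26a1 calls in H3.1K36M against H3.1WT and against H3.1K9M held in all 8 alternatives and all 4 leave-one-out fits of each comparison. The number of members called changed elsewhere. In H3.1K36M against H3.1WT it was 1, but 2 with quantile normalization (Rarg added) and 4 with library quality weights (Rarg, Crabp2 and Aldh1a2 added). In shSuv39h2 against shNC it was 2, but 1 with a pseudocount of 0.1, quantile normalization, quality weights or the arm alone, and 0 to 1 with single libraries left out. In H3.1K9M against H3.1WT it was 0, and 0 to 1 with single libraries left out. In shSuv39h1 against shSuv39h2 it was 0, but 1 with quality weights (Rarg, adjusted p = 0.0273 by limma). In H3.1WT against shNC it was 1, but 0 in the control groups alone and 0 to 1 with single libraries left out. The cause of these changes was not tested, apart from fewer libraries entering the fits that leave some out.

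No paired analysis carries weight here, since the labels do not say whether libraries with the same replicate number, 1 or 2, were handled together. Deviations of same-numbered libraries correlated between -0.384 and 0.383 over the comparisons. With the replicate block, the members called numbered 0, 1, 1, 0, 2, 0 and 1 in the order K9M, K36M, K36M against K9M, shSuv39h1, shSuv39h2, the knockdowns and the control lines, as without it. The block moved the count over all genes by more than 1.5 times only in shSuv39h1 against shNC, from 19 to 10.

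Differences that changed sign were all of members that had not passed. With the fibroblast covariate, Dhrs3 was at -0.050 in H3.1K9M against H3.1WT, Crabp2 at -0.14 and Dhrs3 at -0.33 in H3.1K36M against H3.1WT, Cyp26a1 at 0.026, Crabp2 at 0.13 and Aldh1a2 at -0.054 in shSuv39h1 against shNC, and Crabp2 at 0.19 between the knockdowns. With quantile normalization, Cyp26a1 was at 0.016 in shSuv39h2 against shNC, and Cyp26a1 at -0.063 and Stra6 at -0.13 between the knockdowns. With median-of-ratios scaling, Aldh1a2 was at -0.0015 in shSuv39h1 against shNC. With single libraries left out, Dhrs3 ran from -0.027 to 0.62 in H3.1K9M and from -0.22 to 0.43 in H3.1K36M against H3.1WT. In H3.1K36M against H3.1K9M, Crabp2 ran from -0.39 to 0.33, Dhrs3 from -0.44 to 0.060 and Aldh1a2 from -0.37 to 0.027. In shSuv39h1 against shNC, Cyp26a1 ran from -0.076 to 0.049, Crabp2 from -0.31 to 0.00017 and Aldh1a2 from -0.061 to 0.12. In shSuv39h2 against shNC, Cyp26a1 ran from -0.16 to 0.028, Crabp2 from -0.21 to 0.095 and Dhrs3 from -0.33 to 0.021. Between the knockdowns, Cyp26a1 ran from -0.042 to 0.14, Crabp2 from -0.25 to 0.059 and Stra6 from -0.084 to 0.18. Between the control lines, Rarg ran from -0.094 to 0.053, Crabp2 from -0.29 to 0.023 and Dhrs3 from -0.57 to 0.084.

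Counts over all genes depended more on the setting. H3.1K9M against H3.1WT had 41 called genes, but 12 with no filter, 1 with quality weights, 2 in the arm alone and 2 to 696 with single libraries left out. H3.1K36M against H3.1WT had 634, but 2983 with quality weights, 191 in the arm alone and 58 to 200 with libraries left out. H3.1K36M against H3.1K9M had 1080, but 507, 521 and 1996 with quality weights, the arm alone and the fibroblast covariate, and 209 to 1422 with libraries left out. In shSuv39h1 against shNC the count was 19, but 11 with a pseudocount of 0.1, 3 in the arm alone, 35 with the covariate and 0 to 18 with libraries left out. For shSuv39h2 against shNC it was 1316, but 860, 861 and 2251 with weights, the arm alone and the covariate, and 358 to 1558. The knockdowns differed in 860, but in 2103 with weights, 367 in the arm alone and 76 to 221. The control lines differed in 44, but in 1 when fitted alone, 180 with the covariate and 7 to 158. Leave-one-out fits assume that the lone library of a group varies like the other groups. Every member other than Rarg and Crabp2 rests on few fragments, Cyp26a1 included, which limits the precision of its values.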
